A study of Mus musculus and Homo sapiens with 47 samples.

Results

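The genes described here are 9 human genes of metal handling: the metallothionein genes MT1E, MT1F, MT1G, MT1H, MT1M, MT1X and MT2A, the zinc exporter gene SLC30A1 and MTF1, the gene of the metal-sensing transcription factor. They are 9 of the 25369 genes in a table of raw read counts from SUDHL10 cells, a human B cell lymphoma line. They were chosen by measured values of these same libraries, so their own levels and differences are given as a description, with no test. Of the 9, 7 passed the filter on low counts that left 15278 genes for the fits; MT1E and MT1M did not pass.

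The SUDHL10 libraries are the arm of the series that uses inhibitors of Polycomb repressive complex 2 (PRC2), the complex that methylates lysine 27 of histone H3. SUDHL10 cells were grown untreated, in 5 uM UNC1999 (an inhibitor of the PRC2 enzymes EZH2 and EZH1), or in 5 uM MAK683 (a compound that binds the PRC2 subunit EED), and polyadenylated RNA was sequenced as 50 bp single-end reads. There were 13 libraries: 2 untreated, 2 at each of days 1, 3, 5 and 6 of UNC1999, and 1 at each of days 1, 3 and 5 of MAK683. The untreated libraries are labelled day 5, so days 1, 3 and 6 had no control of their own day, and every comparison with untreated cells rests on the same 2 libraries.

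Metallothioneins are small, cysteine-rich proteins that bind zinc, copper and cadmium and buffer the free zinc of the cell. Their genes carry metal response elements, and MTF1 binds these elements when cellular zinc rises. SLC30A1 is a target of MTF1 as well; its product ZnT1 sits in the plasma membrane and moves zinc out of the cell. Glucocorticoids, heavy metals and oxidative stress are also known to raise metallothionein transcription.

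Library totals ran from 26234896 to 39315662 counts. The B cell label fitted the markers: 10 B cell genes summed to between 5235 and 5316 CPM (reads scaled to the depth of the library) in untreated libraries, between 3547 and 5172 CPM in UNC1999 libraries and between 3175 and 6111 CPM in MAK683 libraries. Single B cell genes did change against untreated (edgeR adjusted p under 0.05). On days 1, 3, 5 and 6 of UNC1999, 2, 1, 3 and 3 of the 10 were higher and 7, 7, 5 and 5 lower. On days 1, 3 and 5 of MAK683, 2, 0 and 5 were higher and 7, 8 and 1 lower. Among all tested genes, between 15.5% and 31.3% were higher and between 14.1% and 27.4% lower. The 14 markers of T, myeloid, stromal, endothelial, epithelial and erythroid cells summed to between 6.69 and 10.3 CPM untreated, between 0.172 and 17.3 CPM in UNC1999 and between 2.17 and 5.88 CPM in MAK683, with CD3D, CD2, CD14 and HBB at 3 counts or fewer in every library. Of these markers CD3E reached the highest level: it was at 1.59 and 1.97 CPM untreated, at 0.103 and 0.278 CPM on day 1 of UNC1999 and at 10.4 and 10.95 CPM on day 6. Of the 10 such markers tested, 0 were higher and 5 lower on day 1 of UNC1999 (28.2% and 26.5% of all tested genes). On day 6, 3 were higher and 5 lower (30.9% and 27.3%). The 2 libraries of a group differed by more than counting noise in each of the 5 groups that had 2 (chi-square per degree of freedom 5.78 to 19.0). The labels call the libraries of a group biological replicates without saying whether they came from separate cultures, and p-values measure only the spread between these libraries. The single MAK683 day 5 library stood apart from the earlier MAK683 days: 15.5% of tested genes were higher and 14.1% lower than in untreated cells, against 26.2% higher and 22.4% lower on day 1.

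MT2A, the most widely expressed metallothionein, was abundant in untreated cells and scarce in all 11 treated libraries. Untreated library A held 737 CPM of MT2A and untreated library B held 1017 CPM. The UNC1999 libraries held 6.75 and 7.84 CPM on day 1, 9.25 and 6.31 CPM on day 3, 8.75 and 8.60 CPM on day 5, and 8.08 and 4.62 CPM on day 6. The MAK683 libraries held 15.96 CPM on day 1, 8.08 CPM on day 3 and 2.70 CPM on day 5. The untreated and treated libraries were thus far apart, and the MAK683 libraries gave both the highest and the lowest of the treated values. The ranges of the UNC1999 days overlapped or lay within 1 CPM of each other, and MAK683 day 3 lay inside them.

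On the log2 scale of the fit, MT2A stood below untreated by a fold change of -6.91 (SE 0.19) on UNC1999 day 1, -6.83 (SE 0.19) on day 3, -6.66 (SE 0.18) on day 5 and -7.08 (SE 0.19) on day 6. For MAK683 it was -5.78 (SE 0.24) on day 1, -6.76 (SE 0.26) on day 3 and -8.34 (SE 0.29) on day 5, which is 325-fold lower. The SE of each MAK683 day borrows its spread from the groups that had 2 libraries.

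MT1X, a metal-inducible member of the MT1 group, showed the same separation at 509 and 765 CPM in untreated libraries A and B. UNC1999 libraries held 12.5 and 10.6 CPM of MT1X on day 1, 26.2 and 22.8 CPM on day 3, 21.3 and 22.9 CPM on day 5, and 19.2 and 13.99 CPM on day 6. MAK683 libraries held 17.7, 16.2 and 4.70 CPM on days 1, 3 and 5. MT1X was lowest on day 5 of MAK683, next lowest on day 1 of UNC1999, and highest among treated groups on days 3 and 5 of UNC1999, whose ranges overlapped. MAK683 days 1 and 3 lay within the range of UNC1999 day 6. The fitted log2 fold change against untreated ran from -4.70 (SE 0.16) on day 3 to -5.78 (SE 0.17) on day 1 for UNC1999, and was -5.17, -5.30 and -7.08 (SE 0.22, 0.22 and 0.26) on days 1, 3 and 5 of MAK683.

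**Figure D1:**
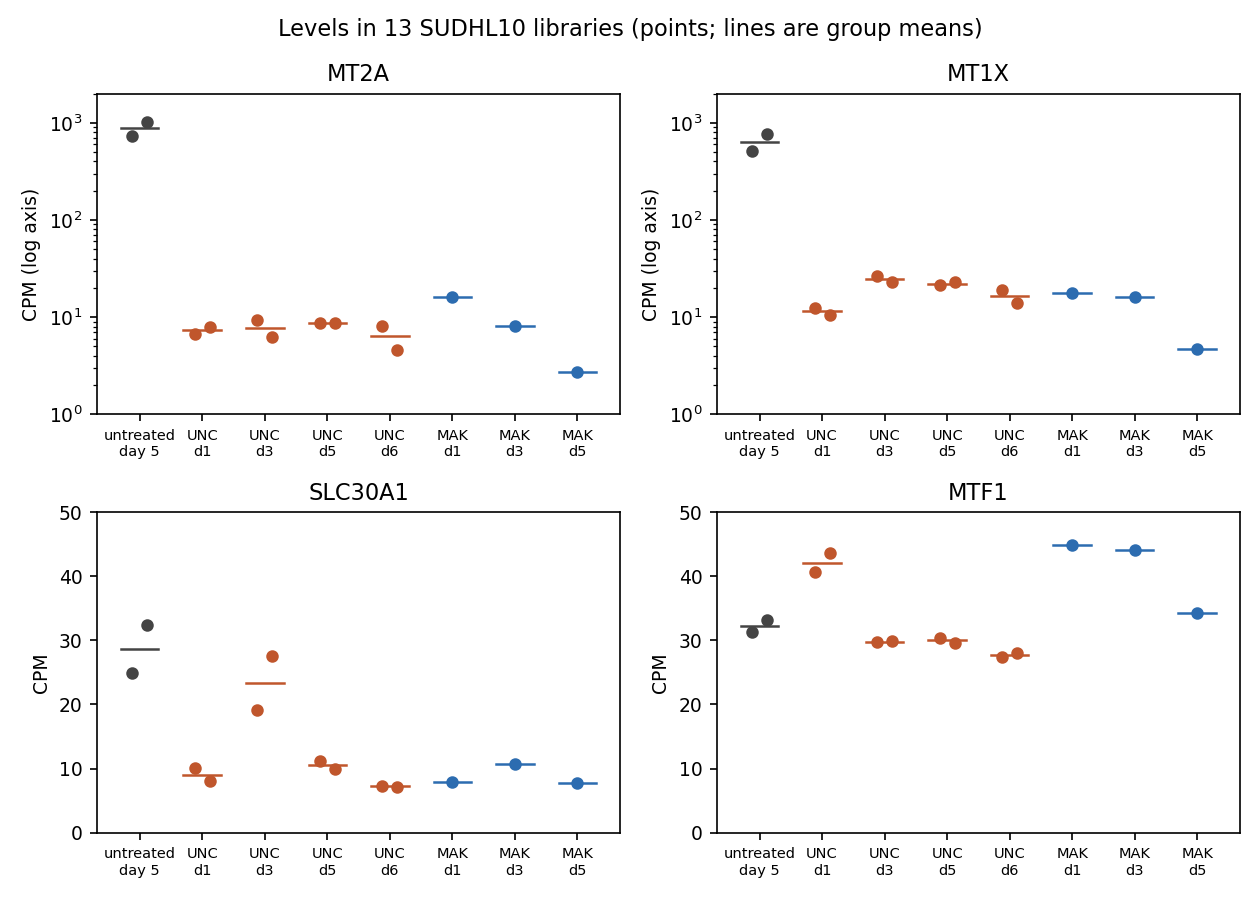
Level of MT2A, MT1X, SLC30A1 and MTF1 in CPM (y axis; log axis for MT2A and MT1X, linear from 0 for SLC30A1 and MTF1) in each of the 13 libraries, by group (x axis); points are libraries and lines group means. MT2A and MT1X lie at or above 509 CPM in both untreated libraries and at or below 26.2 CPM in all 11 treated ones, while MTF1 stays between 27.3 and 44.9 CPM throughout.

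MT1X and MT2A made up 92.8% to 100% of all metallothionein reads. Together they were 0.129% and 0.175% of all counts in the 2 untreated libraries and between 0.000745% and 0.00358% in the treated ones. The sum over all metallothionein genes of the table was 1525 ± 381 CPM (SD, n = 2) in untreated cells. It was 79.0-fold lower on day 1 of UNC1999, 45.3-fold on day 3, 47.1-fold on day 5 and 62.5-fold on day 6. It was 45.0-fold, 62.5-fold and 206-fold lower on days 1, 3 and 5 of MAK683. In bulk RNA, fewer cells that carry a transcript and less of it per cell cannot be told apart. The MT1 genes and pseudogenes resemble each other closely, so single-end reads of this length may be assigned to the wrong copy, and the sum is the firmer quantity.

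The balance between the 2 abundant genes also differed. The ratio of MT2A reads to MT1X reads was 1.45 and 1.33 in untreated libraries. In UNC1999 libraries it ran from 0.276 to 0.738, and in MAK683 libraries it was 0.901, 0.498 and 0.574 on days 1, 3 and 5. All 11 treated libraries lay below both untreated ones, so MT2A was the more reduced of the pair. Gene length cancels in the change of this ratio between libraries.

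**Figure D2:**
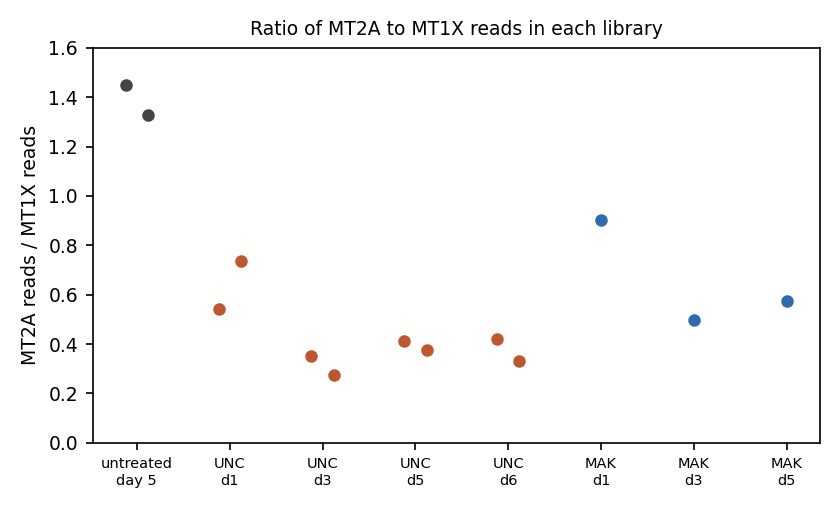
Reads of MT2A divided by reads of MT1X (y axis, linear from 0) in each library, by group (x axis); each point is 1 library. The untreated points sit at 1.45 and 1.33 and all treated points sit at or below 0.901.

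MT1G, MT1H and MT1F were counted at far lower numbers. MT1G, another inducible MT1 gene, had 269 and 355 counts in untreated libraries. UNC1999 libraries had 6 and 0 counts of MT1G on day 1, 0 and 16 on day 3, 14 and 30 on day 5, and 32 and 8 on day 6, and MAK683 libraries had 1, 0 and 0. Both untreated libraries lay above every treated one. Summed over a group and scaled for depth, MT1G was 92.1-fold lower on day 1 of UNC1999 (exact 95% counting interval 42.1 to 252), 38.4-fold on day 3, 16.1-fold on day 5 and 13.7-fold on day 6 (9.93 to 19.3). The 2 libraries of each UNC1999 day differed widely in MT1G. MT1G had 0 counts on days 3 and 5 of MAK683, where the low end of the interval was 82.3-fold and 70.2-fold lower than untreated. These intervals cover counting error only.

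MT1H had 33 and 46 counts in untreated libraries, none on day 1 of UNC1999, 0 and 1 on day 3, 4 and 16 on day 5, 0 and 4 on day 6, and none in any MAK683 library. Where MT1H had 0 counts in a group, the low end of the exact 95% counting interval is given. It was 18.5-fold lower than untreated on day 1 of UNC1999, and 8.88-fold, 10.2-fold and 8.70-fold on days 1, 3 and 5 of MAK683. Day 5 of UNC1999 gave the smallest MT1H difference, 4.48-fold (counting interval 2.72 to 7.73).

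MT1F, a further MT1 gene, did not separate untreated from UNC1999 libraries. It had 14 and 34 counts untreated, 10 and 12 on day 1 of UNC1999, 24 and 26 on day 3, 29 and 4 on day 5, and 29 and 4 on day 6, so the 2 kinds overlapped. The untreated to UNC1999 ratio of summed MT1F counts was 1.93 on day 1 (counting interval 1.14 to 3.36) and 0.944 on day 3 (0.622 to 1.43). Every MAK683 library had 0 counts of MT1F. The low end of the exact 95% counting interval was 5.32-fold lower than untreated on day 1, 6.11-fold on day 3 and 5.21-fold on day 5. The replicates of days 5 and 6 of UNC1999 lay farther apart than those of any other UNC1999 day.

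**Figure D3:**
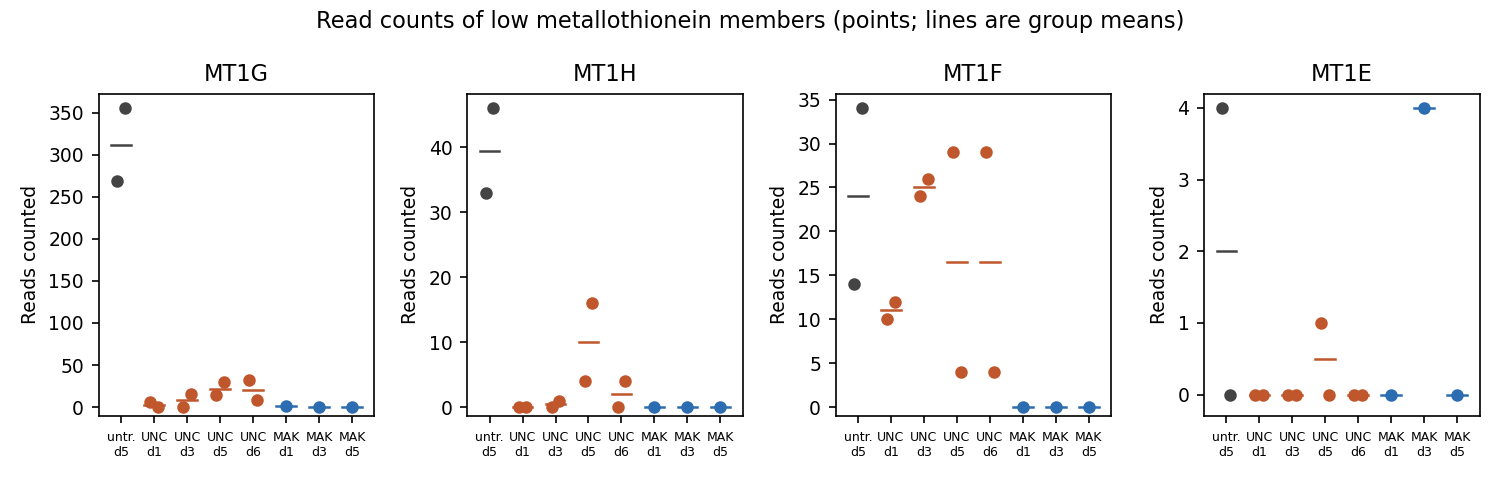
Reads counted for MT1G, MT1H, MT1F and MT1E (y axis, linear) in each library, by group (x axis); points are libraries and lines group means. MT1G and MT1H are high only in the 2 untreated libraries, MT1F overlaps between untreated and UNC1999 and is 0 in MAK683, and MT1E never exceeds 4 reads.

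MT1E had 4 counts in untreated library A, 1 in the first replicate of UNC1999 day 5, 4 on day 3 of MAK683 and 0 elsewhere, and MT1M had 4 counts on day 1 of MAK683 and 0 elsewhere. At this depth no difference in either gene was detectable. Of the 10 other metallothionein genes looked for, 9 were in the table and 2 passed the filter, MT1B and the pseudogene MT1DP. Both were at 0 in untreated and MAK683 libraries: MT1B reached at most 12 counts and MT1DP at most 12 counts, all under UNC1999. MT1DP was called higher on day 5 of UNC1999 in the fit over all genes, a call that was lost under each alternative run for that comparison. MT1HL1, MT1IP, MT1JP, MT3 and MT4 had no counts in any library.

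SLC30A1 was reduced far less than MT2A, MT1X and MT1G, and not in every treated group. Untreated libraries held 24.9 and 32.4 CPM. UNC1999 libraries held 10.1 and 8.08 CPM on day 1, 19.1 and 27.6 CPM on day 3, 11.1 and 9.89 CPM on day 5, and 7.33 and 7.16 CPM on day 6. MAK683 libraries held 7.93, 10.7 and 7.71 CPM on days 1, 3 and 5. Day 3 of UNC1999 overlapped the untreated range, and every other treated library held less than 12 CPM. The log2 fold change of SLC30A1 was -1.66 (SE 0.18) on day 1 of UNC1999, -0.29 (SE 0.17) on day 3, -1.45 (SE 0.18) on day 5 and -1.98 (SE 0.18) on day 6, and -1.85, -1.42 and -1.89 (SE 0.24, 0.23 and 0.24) for MAK683. On day 3 it moved to -0.48 without untreated library A, -0.09 without untreated library B, -0.05 without replicate 1 of that day and -0.59 without replicate 2.

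MTF1 stayed within a narrow band. It was at 31.3 and 33.1 CPM in untreated libraries, 40.6 and 43.6 CPM on day 1 of UNC1999, 29.7 and 29.9 CPM on day 3, 30.4 and 29.7 CPM on day 5, and 27.3 and 28.1 CPM on day 6. MAK683 libraries held 44.9, 44.0 and 34.2 CPM on days 1, 3 and 5. The transcript of the activator was therefore above the untreated range on day 1 of both compounds and on days 3 and 5 of MAK683, and slightly below it on days 3, 5 and 6 of UNC1999. The log2 fold change was 0.38 (SE 0.10) on day 1 of UNC1999 and -0.22 (SE 0.10) on day 6, and 0.48 (SE 0.12), 0.45 (SE 0.12) and 0.09 (SE 0.12) on days 1, 3 and 5 of MAK683. Transcript levels do not show how much MTF1 protein was bound to DNA.

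**Figure D4:**
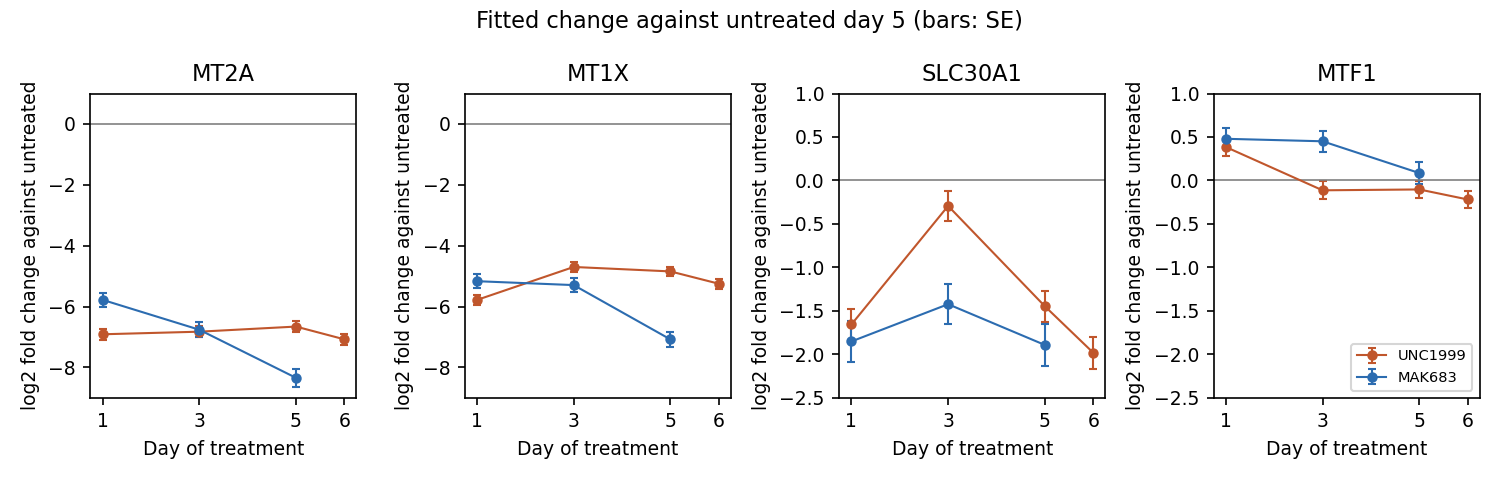
Fitted log2 fold change against untreated (y axis) by day of treatment (x axis) for UNC1999 and MAK683. The MT2A and MT1X panels share one scale, the SLC30A1 and MTF1 panels another. Bars are the SE derived from the F statistic of the test. MT2A and MT1X lie between -4.70 and -8.34 on all days, and MAK683 day 5 is the lowest point of both.

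In the fit over all genes (edgeR's quasi-likelihood test, Benjamini-Hochberg adjusted p under 0.05), the members called against untreated were 1 higher and 5 lower on day 1 of UNC1999, where 28.2% of all tested genes were higher and 26.5% lower. They were 0 and 4 on day 3 (30.1% and 26.9% of all genes), 0 and 4 on day 5 (31.3% and 27.4%), and 0 and 5 on day 6 (30.9% and 27.3%). For MAK683 they were 1 and 6 on day 1 (26.2% and 22.4%), 1 and 6 on day 3 (26.2% and 22.2%), and 0 and 6 on day 5 (15.5% and 14.1%). Since these contrasts chose the members, the counts are a description and nothing is read from them. MTF1 on day 1 of UNC1999 was no longer called without untreated library A (log2 fold change 0.28) or without replicate 2 of that day (0.24).

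Ranked by how far the mean log2 CPM of untreated libraries stood above that of the treated ones, MT2A ranked 1, MT1G 3 and MT1X 7 of 15278 genes. MT1H ranked 43, SLC30A1 1036, MT1F 1153 and MTF1 8108. Both untreated libraries lay above all 11 treated ones for MT1G, MT1H, MT1X and MT2A, as for 9.72% of all tested genes, while 7.74% lay below. The members were chosen with results of these same libraries known. Their ranks and separation are therefore a description, and nothing is read from them.

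The 2 compounds were compared directly on the days they shared. MT2A was lower under UNC1999 than MAK683 on day 1 (log2 difference -1.13, SE 0.22), differed by -0.07 (SE 0.24) on day 3 and was higher on day 5 (1.68, SE 0.30). MT1X followed the same order: -0.62 (SE 0.20), 0.60 (SE 0.19) and 2.23 (SE 0.24) on days 1, 3 and 5. SLC30A1 was higher under UNC1999 on day 3 by 1.13 (SE 0.22), and differed by 0.20 on day 1 and 0.45 on day 5 (SE 0.23 each). MTF1 was lower under UNC1999 on day 3 by -0.56 (SE 0.12), with -0.09 and -0.19 on days 1 and 5 (SE 0.12 each). Members called in these comparisons were 0 higher and 1 lower on day 1 (4.4% and 3.65% of all genes), 3 and 1 on day 3 (10.8% and 11.8%), and 4 and 0 on day 5 (26.4% and 25.7%). The number of genes called on day 1 rests on both UNC1999 libraries: it was 1230, and 761 without replicate 1. Each MAK683 day is 1 library, so these differences have no replicate check on the MAK683 side.

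Within UNC1999, MT1X was higher on later days than on day 1, by a log2 difference of 1.08 (SE 0.16) on day 3, 0.94 (SE 0.16) on day 5 and 0.53 (SE 0.17) on day 6. MT2A moved by 0.09, 0.25 and -0.17 over the same days (SE 0.20, 0.19 and 0.21), and both day 5 libraries lay above both day 1 libraries. MTF1 was lower on each later day, by -0.50, -0.49 and -0.60 (SE 0.10 each). SLC30A1 stood 1.36 (SE 0.18) above day 1 on day 3, with 0.21 on day 5 and -0.32 on day 6. Members called were 2 higher and 1 lower on day 3 (17.2% and 18.2% of all genes), 3 and 1 on day 5 (19.6% and 22%), and 2 and 1 on day 6 (22.1% and 25.5%). The day 6 count was 1 in all without replicate 2 of day 1, and the day 5 count was 2 without that library or without replicate 2 of day 5. Without replicate 2 of day 1, the genes called on day 3 were 3292 in place of 5401.

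The other zinc transporters did not move as a block. Of 9 further ZnT (SLC30) exporter genes, 6 were tested, and between 0 and 2 were called in each direction in every comparison with untreated, with list medians between -0.17 and 0.39 on the log2 scale beside all-gene medians between -0.04 and 0.03. Of 14 ZIP (SLC39) importer genes, which bring zinc into the cytosol, 11 were tested. Between 0 and 5 ZIP genes were higher and between 2 and 4 lower, with medians between -0.11 and 0.10. The shares over all tested genes were 15.5% to 31.3% higher and 14.1% to 27.4% lower. The counts of both lists changed by up to 3 genes when single libraries were left out or the filter was dropped.

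SLC39A9, which encodes a ZIP protein of the secretory pathway and cell surface, was lower in all 7 treated groups. It was at 245 and 286 CPM in untreated libraries, between 64.3 and 94.8 CPM in the 8 UNC1999 libraries, and at 70.1, 88.6 and 191 CPM on days 1, 3 and 5 of MAK683. Its log2 fold change was -2.02 (SE 0.09, edgeR adjusted p = 4.2e-15) on day 5 of UNC1999 and -0.47 (SE 0.11, adjusted p = 0.0017) on day 5 of MAK683, with -1.57 to -1.998 in the other groups. So SLC39A9 on day 5 of MAK683 lay closer to untreated than in any other treated group, while MT2A and MT1X were at their lowest there. That day is 1 library and had the fewest genes called against untreated (15.5% higher and 14.1% lower). Any link between these values was not tested.

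SLC39A14, a ZIP protein that carries zinc and iron, was at 59.9 and 65.8 CPM untreated, between 80.1 and 147 CPM under UNC1999, and at 108, 98.4 and 52.0 CPM on days 1, 3 and 5 of MAK683. It was higher in 6 of 7 treated groups, by 1.17 (SE 0.08, edgeR adjusted p = 2.0e-11) on day 3 of UNC1999 and 0.65 (SE 0.10, adjusted p = 7.1e-06) on day 3 of MAK683. On day 5 of MAK683 its log2 fold change was -0.27 (SE 0.11, adjusted p = 0.055), a value that passed the threshold under DESeq2 (-0.32) and without untreated library A (-0.41). SLC39A10, a plasma membrane importer with a role in B cells, was at 41.4 and 40.3 CPM untreated and 12.6 CPM on day 1 of MAK683, a log2 fold change of -1.69 (SE 0.15, edgeR adjusted p = 7.0e-10). On day 1 of UNC1999 SLC39A10 was at 25.7 and 22.7 CPM (-0.76, SE 0.11, adjusted p = 1.6e-06), and on day 6 at 40.5 and 38.2 CPM. Its call on day 5 of UNC1999 (-0.30) was lost without either library of that day (-0.31 and -0.29). SLC39A6, a second plasma membrane importer, was lower on days 3, 5 and 6 of UNC1999, by -0.59, -0.75 and -0.83 (SE 0.09 each), with adjusted p between 3.7e-08 and 5.3e-06.

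Among the exporters, SLC30A3, known for loading zinc into synaptic vesicles, was at 0.365 and 0.737 CPM untreated and at 4.63 and 3.56 CPM on day 3, 4.71 and 6.36 CPM on day 5 and 2.98 and 3.41 CPM on day 6 of UNC1999. Its log2 fold change on day 5 was 3.33 (SE 0.42, edgeR adjusted p = 2.4e-07). On days 3 and 5 of MAK683 it was at 1.77 and 2.42 CPM (1.68 and 2.13, adjusted p = 0.0067 and 0.0015), and the day 3 call was lost without untreated library A (1.22). SLC30A7, an exporter of the secretory pathway, was lower on days 3, 5 and 6 of UNC1999, by -0.78, -0.75 and -0.72 (SE 0.13 each), with adjusted p between 1.8e-05 and 4.8e-05. SLC30A6, of the same compartment, was higher on days 1 and 3 of both compounds, by 0.40 to 0.57, and lower on day 5 of MAK683 (-0.38, SE 0.12, adjusted p = 0.018); its call on day 1 of MAK683 was lost with no expression filter (0.30). SLC30A9 was lower on days 5 and 6 of UNC1999 (-0.35 and -0.32) and on day 5 of MAK683 (-0.49, SE 0.10, adjusted p = 0.00060). Its call on day 1 of UNC1999 (-0.20) was lost without untreated library B (-0.16) or without replicate 1 of that day (-0.22).

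**Figure D5:**
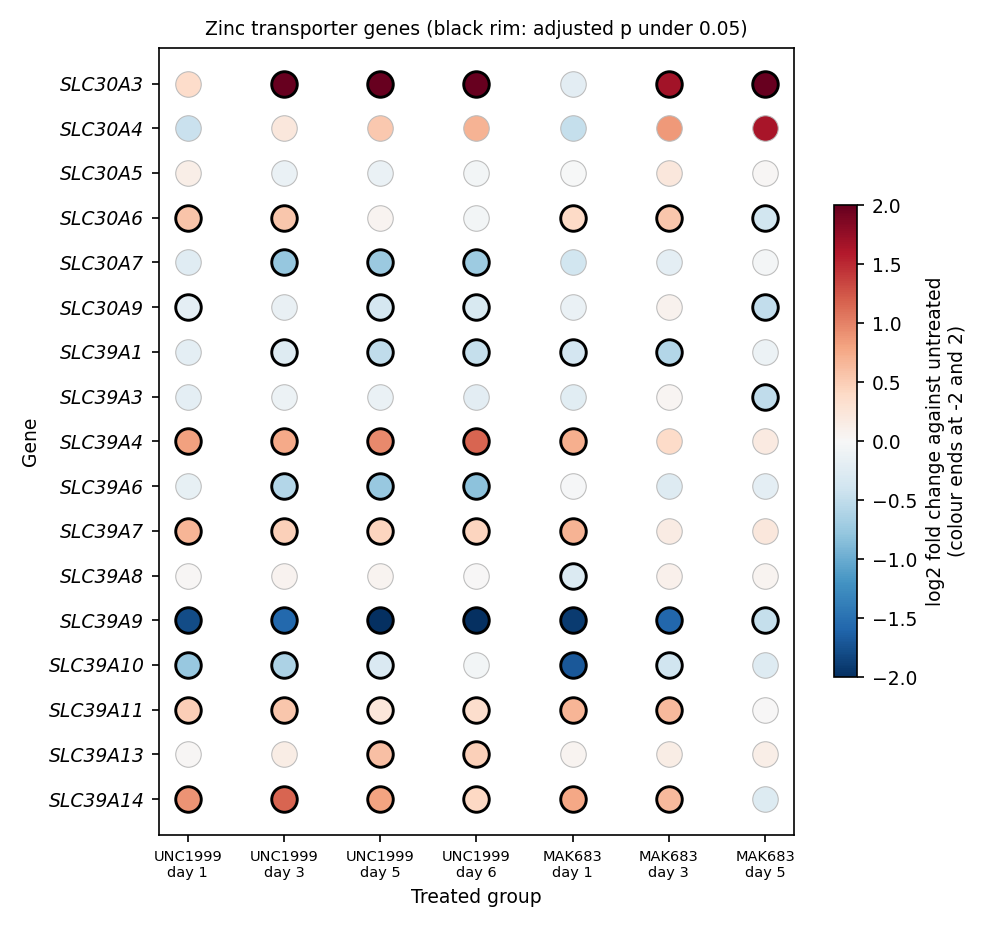
Log2 fold change against untreated (colour, ending at -2 and 2) of the 17 tested ZnT and ZIP genes other than SLC30A1 (y axis) in the 7 treated groups (x axis); a black rim marks an adjusted p under 0.05. SLC39A9 is lower in all 7 groups and SLC30A3 higher in 5, and most of the other genes change by less than 1.

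Genes that respond to other known inducers of metallothioneins were measured in the same libraries. The lists also hold regulators: HSF1 with heat shock, NFE2L2 and KEAP1 with NRF2, and NR3C1 with glucocorticoids. Against untreated, between 15.5% and 31.3% of all tested genes were higher and between 14.1% and 27.4% lower, by group. Of 11 heat shock genes, 8, 8, 9 and 9 were higher on days 1, 3, 5 and 6 of UNC1999 and 8 and 9 on days 1 and 3 of MAK683, with 1 lower on day 3 of UNC1999 and list medians between 1.13 and 2.29. On day 5 of MAK683, 3 were higher and 4 lower, with a median of 0.08. HSP90AA1, a cytosolic chaperone gene, was at 599 and 638 CPM untreated, between 1932 and 3554 CPM in the other treated libraries and at 467 CPM on day 5 of MAK683 (log2 fold change -0.41, SE 0.10, edgeR adjusted p = 0.0021). Heat shock genes went both ways on day 5 of MAK683, which is 1 library and where 15.5% of all tested genes were higher and 14.1% lower. Any link to the metallothionein level was not tested.

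Of 13 oxidative stress genes (NRF2 targets with NFE2L2 and KEAP1), between 0 and 6 were higher and between 3 and 9 lower. Their medians lay between -0.65 and 0.16. The shares of all tested genes, for this list and the next, were 15.5% to 31.3% higher and 14.1% to 27.4% lower. The lowest NRF2 median, with 0 higher and 9 lower, was on day 5 of MAK683. Of 10 glucocorticoid response genes, 9 were tested, with between 1 and 3 higher and between 2 and 6 lower, and medians between -1.22 and 0.67. The lowest of these medians, with 2 higher and 6 lower, was on day 3 of MAK683 (26.2% and 22.2% of all tested genes). The highest, with 3 higher and 2 lower, was on day 5 of MAK683 (15.5% and 14.1%). TXNIP, a gene also known to follow glucose, was at 416 and 493 CPM untreated and between 34.7 and 257 CPM in treated libraries, lower in all 7 groups (log2 fold change -3.65, SE 0.14, edgeR adjusted p = 4.6e-16 on day 1 of UNC1999).

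The copper and iron counts below stand beside 15.5% to 31.3% higher and 14.1% to 27.4% lower over all tested genes. Of 9 copper handling genes, between 1 and 5 were higher and between 1 and 3 lower, with medians between -0.20 and 0.32. COX17, a copper chaperone for cytochrome oxidase, was lower in all 7 groups, by -0.33 to -1.24; its calls on days 1 and 5 of MAK683 were lost without untreated library B (-0.26 and -0.33). Of 9 iron handling genes, 8 were tested, with between 3 and 5 higher and between 1 and 3 lower and medians between 0.09 and 0.33. TFRC, the transferrin receptor that takes up iron, was at 80.4 and 69.9 CPM untreated, between 359 and 713 CPM under UNC1999, and at 367, 351 and 108 CPM on days 1, 3 and 5 of MAK683. Its log2 fold change was 3.24 (SE 0.08, edgeR adjusted p = 9.1e-19) on day 3 of UNC1999 and 0.53 (SE 0.09, adjusted p = 0.00012) on day 5 of MAK683. The part of depth, library or any other inducer in the metallothionein difference was not tested.

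The genes whose pattern over the 13 libraries was most like that of the 5 metallothionein members that passed the filter were ranked by Pearson's correlation over 10539 candidates, as a description. The metallothionein pattern was the mean of the standardised log2 CPM of these 5 genes. MT1F and MT1H, with few counts, therefore weighed as much in it as MT2A and MT1X. The libraries include pairs of replicates and the untreated pair carries most of the contrast. The first 10 were PLAGL2, ANKH, PSMA8, TFB1M, TSEN15, NDUFAF2, HMMR, NAV1, PSMD5-AS1 and ZNF143, with r from 0.922 for PLAGL2 to 0.833 for ZNF143. PLAGL2, a zinc finger gene, was at 118 and 132 CPM untreated, between 80.0 and 91.4 CPM in UNC1999 libraries and at 80.8, 85.6 and 63.8 CPM on days 1, 3 and 5 of MAK683. Like MT2A it was highest in untreated cells and lowest on day 5 of MAK683, with a far smaller span. NAV1, a neuron navigator gene, had the widest span of the 10 relative to its level, from a mean of 25.2 CPM untreated to between 6.46 and 10.52 CPM in treated groups. By rank correlation, 0 of these 10 were among the first 10. SLC30A1 had r = 0.732 and ranked 84, and MTF1 had r = -0.38 and ranked 7922.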

How the data were processed

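RNA-seq of SUDHL10 cells was used, and no other assay. The values are raw read counts per gene, deposited by the authors as whole numbers in 1 table, with libraries made from TRIzol RNA after DNase treatment, per the labels' protocols. The submitters' processing notes name STAR 2.5.3a, Bowtie2 2.3.4.3, SICER 0.0.1, Cell Ranger 3.0.2 and DESeq2 for the series without assigning roles; for the human build, annotation, counter and strand setting no source used here gives a name. Depth ran from 26234896 to 39315662 counts.

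Both untreated columns carry one replicate label, so they were used as 2 untreated libraries with no number (A and B, in column order). All 13 libraries entered 1 fit: filterByExpr, TMM scaling and edgeR 4.0.16's quasi-likelihood test in R 4.3.3, with 5 residual degrees of freedom and Benjamini-Hochberg adjustment over 15278 genes. CPM use TMM-scaled library sizes. Alternatives were library-size scaling, no filter, DESeq2 1.42.0, leaving out each replicated library and, among UNC1999 days, the replicate number as a block.

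The members and lists were chosen with earlier results of these data known. The genes named are the 9 members, from each list up to 4 genes with the smallest adjusted p in any comparison (all 4 for zinc transporters, the first for other lists, of which 1 gene is not reported here), and the 10 most like in pattern; HSP90AA1, TFRC, TXNIP, COX17, MS4A1, CD3E and MT1DP are the first of their lists. Lists were heat shock, NRF2, glucocorticoid, copper, iron, ZnT, ZIP, other metallothionein, B cell and other cell type genes. Neighbouring genes and sequences were not used here.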

Additional observations from a re-analysis of the deposited data

Results flagged for a closer look

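These genes outside the member set differed between UNC1999 and MAK683 on the same day by edgeR's test of the difference (Benjamini-Hochberg adjusted p under 0.05); values are log2 fold changes of UNC1999 over MAK683, and every MAK683 day is 1 library. On day 1, SLC39A10 was higher under UNC1999 by 0.94 (SE 0.14) and TFRC by 0.65 (SE 0.09), while TXNIP differed by -1.43 (SE 0.16), COX17 by -0.53 (SE 0.12) and CD3E by -2.95 (SE 0.50). The day 1 call of COX17 was lost without UNC1999 replicate 2 (-0.49).

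On day 3, TFRC was higher by 1.01 (SE 0.10), TXNIP by 1.74 (SE 0.17) and SLC39A14 by 0.52 (SE 0.10). MS4A1, which encodes the B cell antigen CD20, differed by -0.53 (SE 0.10), SLC30A7 by -0.59 (SE 0.16) and SLC39A6 by -0.34 (SE 0.11). The SLC39A6 call was lost under library-size scaling (-0.28) and without replicate 2 of UNC1999 (-0.25).

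On day 5, HSP90AA1 was higher by 2.29 (SE 0.11), TFRC by 2.01 (SE 0.10), SLC30A3 by 1.19 (SE 0.47), SLC39A14 by 1.07 (SE 0.11) and SLC30A6 by 0.44 (SE 0.12). TXNIP differed by -1.99 (SE 0.15), SLC39A9 by -1.55 (SE 0.10), SLC30A7 by -0.71 (SE 0.16) and SLC39A6 by -0.55 (SE 0.11). The SLC30A3 call was lost without replicate 2 of UNC1999 (0.96). The difference in TXNIP changed sign between days 1, 3 and 5.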

How the results depend on the processing

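Among the members and the named list genes, no called fold change reversed direction under the alternatives run. For the remaining genes only the numbers called were compared. Without 1 UNC1999 library, the genes called between compounds on day 1 numbered 761 to 840 (main 1230), those called between UNC1999 days 3 and 1 numbered 3292 to 5389 (main 5401), the members called between UNC1999 days 5 and 1 numbered 2 to 4 (main 4) and those between days 6 and 1 numbered 1 to 3 (main 3). DESeq2 called 3 members on day 6 of UNC1999 against untreated (main 5) and 2 between UNC1999 days 5 and 1. With no expression filter 2 members were called between compounds on day 1 (main 1). UNC1999 libraries alone gave 2 members called between days 5 and 1, with or without the replicate block. Same-numbered UNC1999 libraries did not deviate together (correlations of -0.042 to 0.024 over 6 pairs of days), so the numbers were not taken as a pairing; the block gave 5103 genes between days 3 and 1 against 5207 without it. Without untreated library B, MT1F under MAK683 was no longer called, nor MT1H on day 5 of MAK683 and day 6 of UNC1999, though under MAK683 the fitted log2 fold changes, which depend on the prior count at 0 reads, were -6.72 for MT1F (main -7.54) and -7.95 for MT1H (main -8.25). Of the members' fold changes under alternatives, 542 stayed on their side of the threshold, called or not, 36 lost a call and 7 gained one. Counts of list genes called higher or lower stayed within 1.5 times in 1488 recomputations and moved further in 212, mostly counts of few genes. Spearman's ranking shared 0 of the 10 genes most like the metallothioneins. The cause of these changes was not tested. Depth limits MT1E and MT1M, with 9 and 4 counts over all libraries.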
